A study of Mus musculus with 40 samples.

Results

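The genes of the collagen chains were examined in brown adipose tissue. They were the protein-coding genes of the GENCODE M21 basic annotation (GRCm38) whose symbol is Col, a number, the letter a and a number, which gave 44 of 21951 genes. Chromatin immunoprecipitation with sequencing (ChIP-seq) had been performed for 4 histone marks in the tissue of 8 wild type C57BL/6N mice aged 20 weeks. All mice carried the same genotype and had received chow until 8 weeks of age. Mice 1 and 2 stayed on chow (NCD) and were kept warm, mice 4 and 5 received NCD and were kept at 4 °C for 24 h, mice 7 and 8 received a high-fat diet (HFD) for 12 weeks and were kept warm, and mice 10 and 11 received HFD for 12 weeks and then 4 °C for 24 h. The labels give no temperature for the warm mice, which the methods of the study place at room temperature. The labels name the tissue iBAT, which the design text of the series calls inguinal and the study interscapular. Each condition had 2 mice, and the methods leave unclear whether a library came from a single mouse or from 2.

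Collagens are triple helices of 3 chains, and each chain has its own gene. Fibrillar collagens give connective tissue its tensile strength, type IV collagens form the network of basement membranes, including those around adipocytes and capillaries, and type VI collagens form beaded filaments that are prominent in adipose tissue. Among the marks, H3K4me3 lies at promoters, H3K27ac at active promoters and enhancers, H3K4me1 at enhancers, and H3K27me3 at genes held silent by Polycomb complexes.

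Most collagen genes carried H3K4me3 at a start site, but few also carried H3K27ac there. A mark was counted at a gene in a mouse when a peak lay within 1000 bp of any annotated start site. With H3K4me3 and H3K27ac each required in at least 4 mice, 4 of the 44 collagen genes were active (9.09%), against 39.6% of all protein-coding genes. These were Col4a1, Col4a2, Col27a1 and Col5a2. A further 21 collagen genes had H3K4me3 in at least 4 mice with H3K27ac in fewer than 4 (47.7%, against 21% of all genes). H3K27me3 was found in at least 1 mouse at 10 collagen genes (22.7%, against 6.94%), and 5 of these were also among the 21. No mark was found in any mouse at 10 collagen genes (22.7%, against 32.6%). The other 4 collagen genes, Col10a1, Col11a1, Col11a2 and Col22a1, carried a mark but fell in none of these states. All had H3K4me3 in fewer than 4 mice or in none, and Col22a1 carried only H3K4me1, which by itself defined no state. H3K4me3 in at least 4 mice was about as frequent at collagen genes as elsewhere (25 of 44, 56.8%, against 60.6%), whereas 4 of those 25 (16%) were active, against 65.3% of all genes with H3K4me3 in at least 4 mice.

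**Figure D1:**
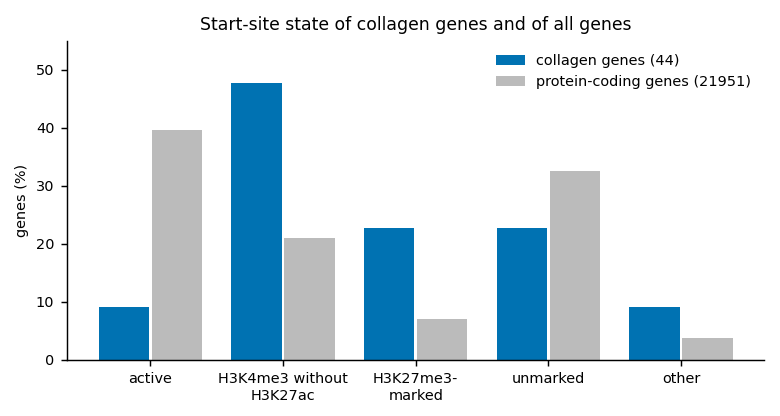
Percent of genes (vertical axis) in each start-site state for the 44 collagen genes (blue) and the 21951 protein-coding genes (grey). The active bar is 9.09% against 39.6%, and the bar for H3K4me3 without H3K27ac is 47.7% against 21%. A gene with H3K27me3 can also count in the state before it.

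The promoters differed in sequence as well as in marks. Promoter windows of 300 bases (250 before and 50 after the start) were available from RefSeq (GRCm38.p6) for 35 of the 44 genes. The following 6 windows are shown for an active gene of type IV (Col4a1, chr8:11312777-11313076, minus strand), the active fibrillar gene with the more frequent H3K27ac (Col27a1, chr4:63215162-63215461, plus strand), a gene with both H3K4me3 and H3K27me3 (Col1a2, chr6:4505368-4505667, plus strand), a gene with H3K27me3 and many CpG pairs (Col8a2, chr4:126286544-126286843, plus strand), a fibrillar gene with H3K4me3 and no CpG pair (Col3a1, chr1:45311288-45311587, plus strand) and a gene with no mark at its start (Col28a1, chr6:8192568-8192867, minus strand). The marks named are those within 1000 bp of a start site, not only those in the window. The H3K27me3 peak of Col1a2 (mouse 5, chr6:4504594-4504827) lay before the window shown. Capitals mark CpG pairs, the sites of DNA methylation.
Col4a1: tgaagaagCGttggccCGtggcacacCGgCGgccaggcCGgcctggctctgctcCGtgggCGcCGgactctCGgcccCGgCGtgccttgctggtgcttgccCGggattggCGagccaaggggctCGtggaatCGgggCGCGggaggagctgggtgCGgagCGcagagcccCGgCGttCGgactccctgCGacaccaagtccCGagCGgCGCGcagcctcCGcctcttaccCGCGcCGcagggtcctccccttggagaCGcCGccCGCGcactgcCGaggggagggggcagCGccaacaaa
Col27a1: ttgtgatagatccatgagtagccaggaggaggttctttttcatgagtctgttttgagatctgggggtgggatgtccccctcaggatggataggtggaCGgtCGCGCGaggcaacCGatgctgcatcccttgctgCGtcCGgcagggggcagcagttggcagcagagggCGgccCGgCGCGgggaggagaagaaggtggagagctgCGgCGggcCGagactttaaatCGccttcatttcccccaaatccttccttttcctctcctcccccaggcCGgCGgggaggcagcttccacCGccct
Col1a2: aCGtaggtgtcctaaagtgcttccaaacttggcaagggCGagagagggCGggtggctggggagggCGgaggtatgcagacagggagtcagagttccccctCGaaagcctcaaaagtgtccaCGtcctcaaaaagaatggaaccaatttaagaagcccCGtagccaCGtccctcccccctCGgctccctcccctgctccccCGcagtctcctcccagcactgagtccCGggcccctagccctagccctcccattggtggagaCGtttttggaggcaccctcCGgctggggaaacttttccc
Col8a2: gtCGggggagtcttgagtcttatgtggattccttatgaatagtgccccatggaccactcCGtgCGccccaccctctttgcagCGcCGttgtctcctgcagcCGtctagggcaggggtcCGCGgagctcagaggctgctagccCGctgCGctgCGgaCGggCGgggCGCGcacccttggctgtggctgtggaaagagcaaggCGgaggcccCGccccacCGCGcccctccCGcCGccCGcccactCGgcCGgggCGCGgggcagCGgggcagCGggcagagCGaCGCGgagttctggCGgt
Col3a1: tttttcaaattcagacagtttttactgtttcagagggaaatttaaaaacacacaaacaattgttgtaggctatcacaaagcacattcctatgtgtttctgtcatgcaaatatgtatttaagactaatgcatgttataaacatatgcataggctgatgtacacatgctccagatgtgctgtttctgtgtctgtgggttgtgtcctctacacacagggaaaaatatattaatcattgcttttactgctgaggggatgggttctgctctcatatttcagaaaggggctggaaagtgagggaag
Col28a1: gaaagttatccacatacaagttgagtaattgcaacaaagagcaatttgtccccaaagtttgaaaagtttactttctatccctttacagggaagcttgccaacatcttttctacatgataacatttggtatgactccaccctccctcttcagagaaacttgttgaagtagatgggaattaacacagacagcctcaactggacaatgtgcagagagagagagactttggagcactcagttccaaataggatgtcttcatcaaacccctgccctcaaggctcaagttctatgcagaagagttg

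The window of Col4a1 held 37 CpG pairs, the highest number among the 35 collagen windows, and that of Col4a2 held 33. The windows of Col3a1 and Col28a1 held 0. Between these, the window of Col8a2 held 32, that of Col27a1 18 and that of Col1a2 13. By state, the median number was 33 for the 3 matched active genes (18 to 37), 16 for the 17 with H3K4me3 without H3K27ac (0 to 34), 13 for the 7 with H3K27me3 (6 to 32) and 5 for the 9 unmarked genes (0 to 14). Of the 3 active windows, those of Col4a1 and Col4a2 overlap and belong to the same promoter. Over the 16522 protein-coding genes matched, the median was 15. A high number of CpG pairs thus occurred at genes with and without H3K27ac, whereas no unmarked collagen gene exceeded 14.

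**Figure D2:**
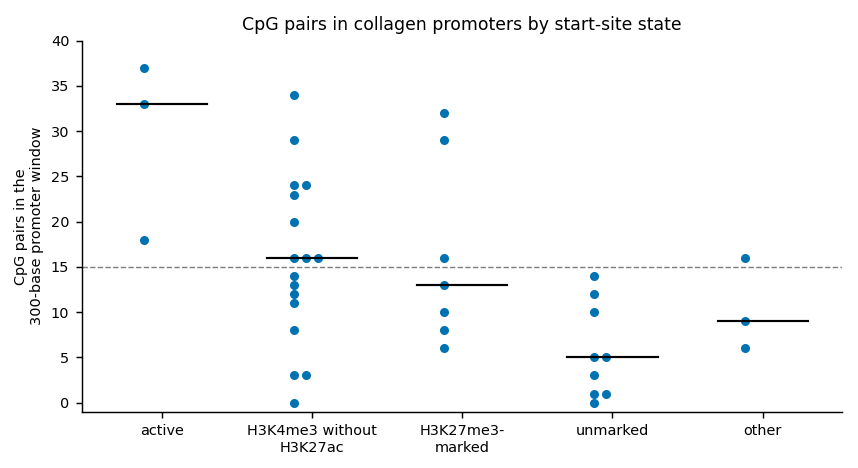
Number of CpG pairs in the 300-base promoter window (vertical axis) of each matched collagen gene (point) by start-site state, with the median of each state (black line) and of all protein-coding genes (dashed line, 15). The 9 unmarked genes lie between 0 and 14, and the 3 active genes between 18 and 37. Of these 3, Col4a1 and Col4a2 share a promoter, and their windows overlap. Genes with both H3K4me3 and H3K27me3 appear in both columns.

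The letters of common promoter motifs were searched on both strands, and a motif was counted as present or absent. None of the 3 motifs contains another. TATAAA was present in 5 of the 35 collagen windows (14.3%, against 12.4% of all windows), including those of Col3a1 and Col13a1. CCAAT was present in 13 (37.1%, against 38%), including those of Col1a2, Col4a1 and Col4a2. GGGCGG was present in 22 (62.9%, against 49.9%), including all 3 matched active genes, of which Col4a1 and Col4a2 share a promoter.

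Type IV collagen, the network former of basement membranes, held the most regularly marked pair. Col4a1 (ENSMUSG00000031502.11, chr8:11198423-11312826, minus strand) and Col4a2 (ENSMUSG00000031503.13, chr8:11312805-11449287, plus strand) encode the chains of the common type IV trimer. Their start sites lie 21 bp apart in opposite directions, and 1 H3K4me3 peak spanned both in 7 of 8 mice. In mouse 7, 2 separate H3K4me3 peaks lay on either side of the starts, within 1000 bp, and neither covered them. The H3K4me3 peak of highest fold within 1000 bp stood at a median percentile of 79.9 by fold enrichment within its own list (percent of peaks with a lower fold), and at 3.07 in mouse 7, the lowest of the 8. An H3K27ac peak lay within 1000 bp of both starts in 7 of 8 mice, at a median percentile of 96.8. Mouse 7, whose H3K27ac list was the shortest (3224 peaks), had none there. Since both genes share these peaks, they count as 1 promoter.

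The remaining type IV chains are known from the kidney, eye, lung and other specialised basement membranes. Col4a3 and Col4a4 also start 127 bp apart, and 1 H3K4me3 peak lay within 1000 bp of both in 5 mice and spanned both in 4, without H3K27ac in any mouse. Col4a5 had H3K4me3 in 8 mice and no H3K27ac in any, a combination found at 2.22% of all genes and at no other collagen gene. Its neighbour Col4a6, which starts 1309 bp away in the opposite direction, had no mark in any mouse. The 6 type IV genes thus ranged from H3K27ac in 7 mice to no mark at all.

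Among the 11 fibrillar genes, whose chains assemble into banded fibrils, 2 were active, 5 had H3K4me3 without H3K27ac and 3 had H3K27me3. Col27a1 (ENSMUSG00000045672.15), a fibrillar chain known from cartilage, had H3K4me3 in 7 mice and H3K27ac in 6. Its H3K27ac peak stood at percentiles from 2.60 in mouse 4 to 87.4 in mouse 11, so its rank varied widely between mice. Col5a2 (ENSMUSG00000026042.16), a chain of type V collagen that sets fibril diameter, had H3K4me3 in 8 mice and H3K27ac in mice 2, 5, 8 and 11, the smallest number that counted as active. Col5a2 was no longer active with a window of 500 bp or with the highest point of the peak required in the window. It was also not active with only peaks of −log10 q of at least 5. Requiring 6 mice, or leaving out mouse 2, 5, 8 or 11, removed it by construction, since it had H3K27ac in only these mice. With a window of 2000 bp Col12a1 was active as well. Col3a1, the chain of the type III collagen of elastic tissues, fell just short with H3K4me3 in 4 mice and H3K27ac in mice 2, 8 and 11. The partners of Col5a2 carried H3K27ac less often, Col5a1 in 1 mouse and Col5a3 in 2, each with H3K4me3 in 7.

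The chains of type I collagen, the main fibrillar collagen of connective tissue, carried no H3K27ac at a start site in any mouse. Col1a1 (ENSMUSG00000001506.10) had H3K4me3 in 6 mice and Col1a2 (ENSMUSG00000029661.16) in 7. Col1a2 also had H3K27me3 in mouse 5, in a peak that did not overlap the H3K4me3 peak of that mouse. Col2a1 and Col24a1 had H3K27me3 and no other mark at a start site. Col2a1 encodes the main collagen chain of cartilage.

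Among the 6 type VI genes, Col6a1, Col6a2 and Col6a3, which encode the chains of the common type VI trimer, had H3K4me3 in 5, 5 and 4 mice. H3K27ac was present at a start site in mouse 2 for Col6a1 and in no mouse for Col6a2 and Col6a3. Col6a4, Col6a5 and Col6a6, which lie next to each other on chromosome 9, had no mark. The type VI genes therefore separated into a group with H3K4me3 (Col6a1, Col6a2 and Col6a3) and a group with no mark (Col6a4, Col6a5 and Col6a6).

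Of the 9 fibril-associated genes, whose chains decorate the surface of fibrils, none was active. Col12a1, Col14a1, Col16a1 and Col19a1 had H3K4me3 in 5 to 7 mice, Col9a2 in 3 mice, and Col9a1, Col9a3 and Col20a1 had no mark. Col22a1 had H3K4me1 in 3 mice and no other mark. Both multiplexins, Col15a1 and Col18a1, whose C-terminal fragments include endostatin for Col18a1, had H3K4me3, in 6 and 7 mice. Col18a1 also had H3K27ac at a start site in mice 2 and 5. Of the 4 transmembrane collagens, Col23a1 had H3K4me3 in 8 mice, Col25a1 in 7, Col13a1 in 4, and Col17a1, a component of epithelial hemidesmosomes, in none. Col7a1, the anchoring fibril chain of skin, was also unmarked.

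**Figure D3:**
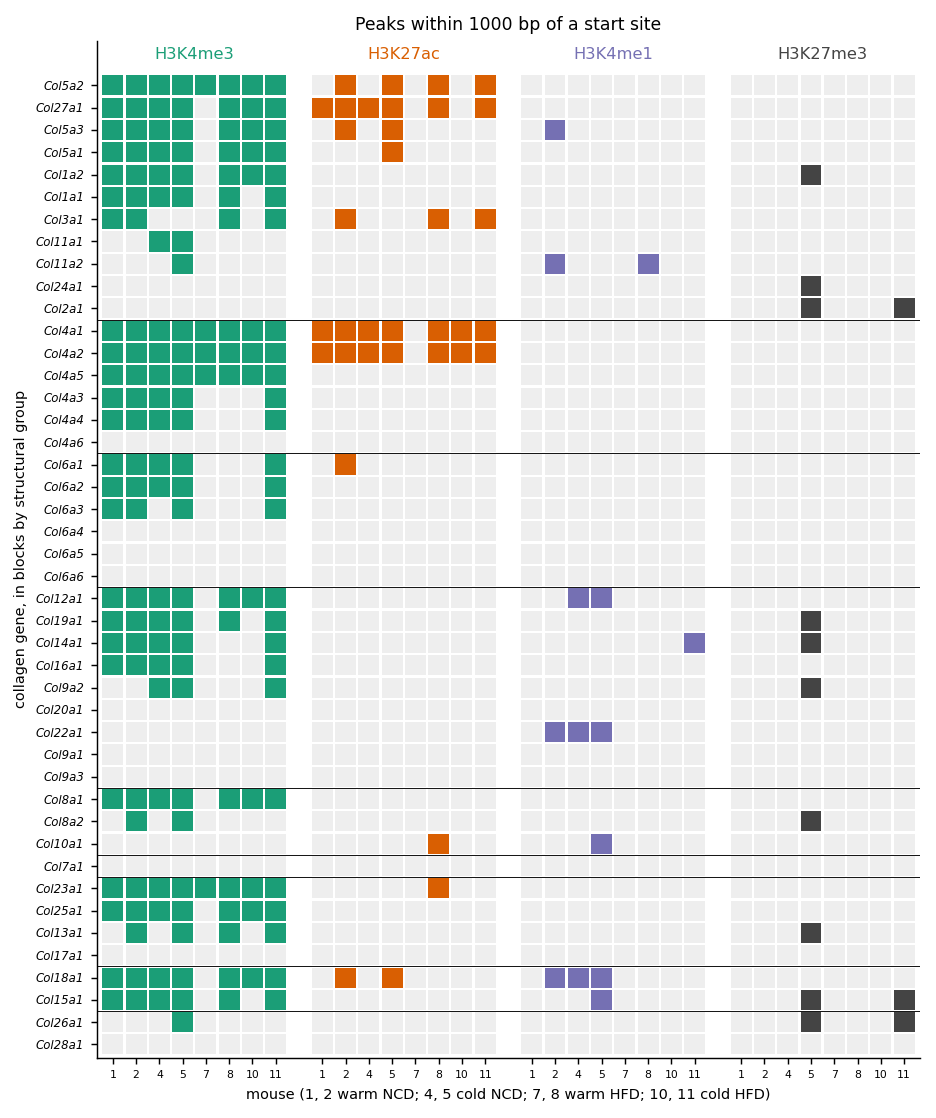
Presence (coloured) or absence (grey) of a peak within 1000 bp of a start site for each collagen gene (rows, in blocks by structural group) in each mouse (columns) and mark. H3K27ac is present in 7 mice at Col4a1 and Col4a2 and in 6 at Col27a1, and H3K27me3 is present only in mice 5 and 11.

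The H3K4me3 peaks without H3K27ac were also lower within their lists. The median percentile by fold of a member's H3K4me3 peak over its mice was 29.6 for the 21 genes with H3K4me3 without H3K27ac (8.00 to 50.8), against 50.7 for all genes in that state. Col3a1 was the lowest and Col23a1 the highest. For the 4 active collagen genes the value was 69.0 (46.4 to 79.9), against 77.7 for all active genes. Col4a1 and Col4a2 entered this value with the same peaks.

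H3K27me3 was found at 10 collagen genes in mouse 5 and at 3 of these in mouse 11, Col2a1, Col15a1 and Col26a1. No other mouse showed it at any collagen gene. The lists of mice 5 and 11 held 6428 and 1392 H3K27me3 peaks, and those of the other 6 mice held 20 to 309. In the short lists, absence of the mark and lack of detection cannot be told apart. In mouse 5 the mark lay at 22.7% of collagen genes and 6.56% of all genes, and in mouse 11 at 6.82% and 1.54%. Within the list of mouse 5, the peaks of Col8a2 and Col14a1 stood at percentiles 94.8 and 84.1, and that of Col19a1 at 8.73. Col1a2, Col13a1, Col14a1, Col15a1 and Col19a1 carried H3K4me3 in at least 4 mice as well, a combination found at 11.4% of collagen genes and 3.88% of all genes. At Col1a2 the peaks of these marks in mouse 5 did not overlap. In whole tissue, both marks on the same chromosome and marks in different cells cannot be told apart.

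H3K27ac along the gene bodies was concentrated on Col4a1 and Col4a2. At least 1 base of the body was covered in at least 1 mouse at 16 of the 44 collagen genes (36.4%, against 53.6% of all genes), although collagen genes were long (median 114 kb, against 17.4 kb). Col4a1 and Col4a2 together held 63.8% to 100% of all H3K27ac-covered bases of collagen genes in each mouse, with the lowest share in mouse 2. Among the 2492 genes of at least 100 kb, Col4a1 ranked between 10 and 73 and Col4a2 between 7 and 154 by percent covered, and mouse 7 gave the lowest rank of each. Peaks of the 8 mice merged into 26 regions in Col4a1, 7 of them in at least 4 mice, and into 36 in Col4a2, 11 of them in at least 4 mice. The region at the shared start counts in both genes. Of all 104 regions in collagen genes, 27.9% were in at least 4 mice, against 44.3% of the 34779 regions in all genes. Regions in 1 mouse made up 43.3%, against 32.3%. Of these 45 collagen regions, 10 lay in Col4a1 and 19 in Col4a2, so this 1 locus weighs heavily in both shares.

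The recurrent regions formed several separate groups along both genes. The region at the shared start, chr8:11307587-11317001, held a peak in 8 mice, that of mouse 7 more than 1000 bp from the start, as did chr8:11276424-11283121 in Col4a1, 29705 bp from the start, and chr8:11337422-11342230 in Col4a2, 24617 bp from the start. The most distant region present in at least 4 mice was chr8:11417146-11419374, 104341 bp into Col4a2, with peaks in 7 mice. An H3K4me1 peak overlapped 20 of the 26 and 23 of the 36 regions in at least 1 mouse.

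Whether cold exposure changed H3K27ac on these genes was examined over 4 cold and 4 warm mice. H3K27ac covered 28.3%, 14.4%, 9.59% and 22.2% of the Col4a1 body in cold mice 4, 5, 10 and 11, and 7.41%, 13.8%, 0.708% and 12.3% in warm mice 1, 2, 7 and 8. Mouse 10 lay below warm mice 2 and 8, so the groups overlapped. The means were 18.6% ± 8.29 in cold and 8.55% ± 5.90 in warm mice (SD, n = 4 each, two-sided exact permutation p = 0.114, adjusted p = 1 over 11760 genes). For Col4a2 the values were 29.7%, 11.2%, 13.7% and 29.5% in cold and 5.67%, 9.04%, 0.282% and 11.9% in warm mice. Cold mouse 5 lay just below warm mouse 8, and the other 3 cold mice lay above every warm mouse. The means were 21.0% ± 9.96 and 6.74% ± 5.01 (SD, n = 4 each, exact permutation p = 0.0571, adjusted p = 1). The groups of Col4a2 no longer overlapped without mouse 5 (nor did those of 1.58% of all genes), without mouse 8 (3.08% of all genes), or with only peaks of −log10 q of at least 5, where cold mice had 8.91% to 25.5% and warm mice 0% to 8.58% (exact permutation p = 0.0286, at which 0.657% of genes did not overlap). The groups of Col4a1, Col6a3 and Col28a1 no longer overlapped without mouse 10, at which 10.2% of genes did not overlap. With lists of equal length (the 3000 highest peaks of each), the difference between cold and warm means was 1.27 percentage points for Col4a1, against 10.1 with all peaks, and 6.52 for Col4a2, against 14.3 (exact permutation p = 0.0857 and 0.0571).

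Other values were compared by temperature as well. H3K27ac lists covered 0.633% to 2.42% of all gene-body bases in cold and 0.102% to 1.86% in warm mice, so the groups overlapped. Of the 11760 genes, 72.2% had a higher mean in cold mice. Divided by the average of its own library, Col4a2 coverage was 16.9, 6.01, 21.6 and 12.2 times that average in cold mice and 7.07, 4.86, 2.76 and 6.86 times in warm mice, with mouse 5 below warm mice 1 and 8. The 8 endothelial marker genes, of which 7 were active and Vwf was not, had a summed body coverage of 85.2% to 198% in cold and 0.290% to 80.6% in warm mice, which did not overlap. This sum was not divided by the library average, and its genes entered it unequally. The highest coverage in any mouse was 100% for Cldn5 and 68.4% for Kdr, but 1.26% for Emcn and 0.178% for Vwf. Taken singly, 1 of the 8 (Cdh5) had coverage that did not overlap, against 1.27% of all genes. The same held for 1 of the 7 macrophage markers (Cd68), which was also higher in cold. A background for the summed values was not computed, and the summed ranges of the other marker lists overlapped between temperatures. The part of the endothelial genes in the Col4a1 and Col4a2 values was not tested. In whole tissue, more cells of a type and more of the mark per cell cannot be told apart.

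No collagen gene separated by temperature when all 8 mice and all peaks were used. Coverage of Col27a1 was 1.30%, 2.54%, 0% and 3.69% in cold mice 4, 5, 10 and 11 and 0.934%, 2.26%, 0% and 1.62% in warm mice 1, 2, 7 and 8, so both groups began at 0% and overlapped. Col3a1 was covered in mice 2, 8 and 11 (0.762%, 0.689% and 2.04%), Col6a1 in mouse 2 (3.42%) and Col15a1 in mouse 2 (0.252%), while no base of Col1a1 or Col1a2 was covered in any mouse. Of 16 collagen genes with any coverage, 0 had groups that did not overlap, against 1.27% of all 11760 genes, and 0 had an unadjusted exact permutation p under 0.05. No gene of the 11760 had an adjusted p under 0.05. The smallest exact permutation p that 4 against 4 mice allow is 0.0286, and 149 genes (1.27%) reached it, too few for an adjusted p under 0.05. The mean was higher in cold mice at 11 of the 16 (68.8%, against 72.2% of all genes).

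By diet, the same count was 0 of 16, against 0.867% of all genes, with 0 at an unadjusted exact permutation p under 0.05. H3K27ac covered 1.02%, 3.68%, 4.08% and 5.84% of the Col18a1 body in NCD mice 1, 2, 4 and 5, and 0%, 1.73%, 0% and 1.43% in HFD mice 7, 8, 10 and 11. Mouse 1 lay below HFD mice 8 and 11 and the other NCD mice above all HFD mice. The means were 3.66% ± 1.99 on NCD and 0.791% ± 0.921 on HFD (SD, n = 4 each, exact permutation p = 0.0857, adjusted p = 1). Relative to the library average the groups did not overlap (1.28 to 3.13 times on NCD, 0 to 0.993 times on HFD), as was the case for 3.52% of genes. The 2 regions nearest the 3′ end of Col18a1 lie where it overlaps the folate carrier gene Slc19a1 by 8825 bp, and their signal cannot be assigned to either gene. Of the 104 H3K27ac regions in collagen genes, 1, in that overlap, had peaks in all 4 NCD and no HFD mice (background 0.0891%), and 0 were divided in this way by temperature (0.276% in cold only and 0.00288% in warm only). For Col4a1 and Col4a2 the diet means were 11.2% ± 8.83 and 13.9% ± 12.0 on HFD and 16.0% ± 8.81 and 13.9% ± 10.8 on NCD (SD, n = 4 each), smaller differences than the spread between mice. The interaction of temperature and diet gave no collagen gene with groups that did not overlap (0.017% of all genes) and 0 at an unadjusted exact permutation p under 0.05.

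**Figure D4:**
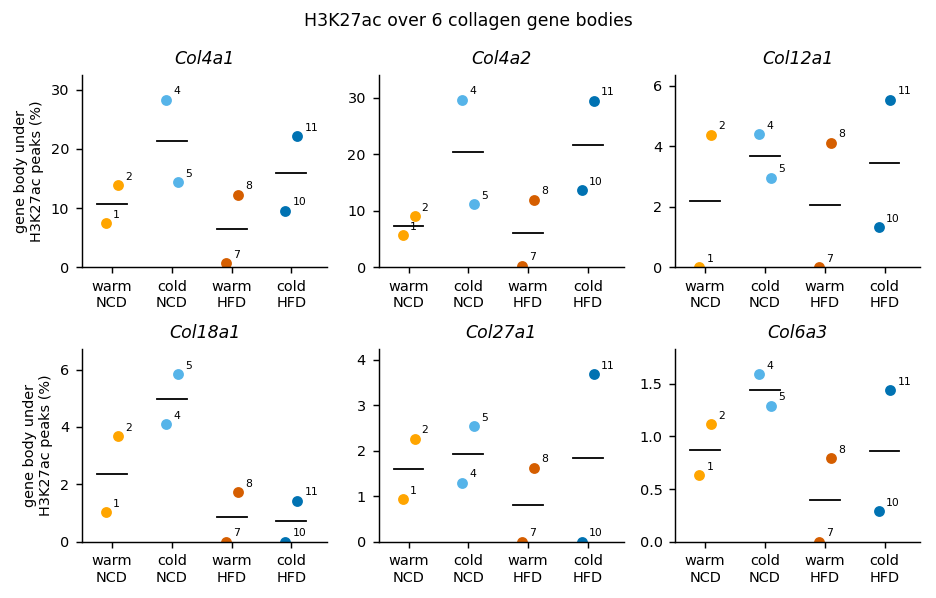
Percent of the gene body under H3K27ac peaks (vertical axis, different scales) in each mouse (points, numbered) by condition for 6 collagen genes, with condition means (lines). Cold mouse 4 is highest for Col4a1 and Col4a2, at 28.3% and 29.7%, and mouse 7 is lowest in all 6 genes, jointly with other mice at 0% where these occur.

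Several genes carried recurrent H3K27ac away from their start. Col12a1, a fibril-associated chain, had no H3K27ac at a start site but 4 regions with peaks in 5 or 6 mice, between 1541 bp and 107189 bp from the nearest start site. Coverage was 4.39% and 2.96% in cold NCD mice 4 and 5, 1.33% and 5.53% in cold HFD mice 10 and 11, 0% and 4.38% in warm NCD mice 1 and 2, and 0% and 4.12% in warm HFD mice 7 and 8. The mice without coverage were both warm, but the other 2 warm mice lay within the range of the cold ones. Col6a3 had 1 region (chr1:90837759-90839146), 4806 bp from the nearest start site, with peaks in 7 mice, all but mouse 7. Col28a1, unmarked at its start, had 3 regions at least 97253 bp from it, of which 2 were found in cold mice 4, 5 and 11. A region in 8 mice at the 3′ end of Col23a1 also spanned the start of the neighbouring gene Phykpl and covered at most 0.1% of the Col23a1 body.

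At start sites, no mark of any collagen gene was divided completely between the groups, with a peak in 4 mice of a group and 0 of its counterpart. For H3K4me3 this was 0 of 30 collagen genes by temperature (0.0421% of 14245 genes) and 0 by diet (0.239%). For H3K27ac it was 0 of 11 by temperature (0.119% of 10900 genes) and by diet (0.101%), for H3K4me1 0 of 8 (0% and 0.0608%), and for H3K27me3 0 of 10 (0% and 0.525%). With 4 mice a group, such a division is the only one with an unadjusted Fisher's exact p under 0.05, so this count was also 0 throughout. H3K4me3 in 4 NCD mice and at most 1 HFD mouse was found at 6 of the 30, Col4a3, Col4a4, Col6a1, Col6a2, Col14a1 and Col16a1, against 1.85% of all genes. All 6 had it in mice 1, 2, 4, 5 and 11 (Fisher's exact p = 0.143 for each), and Col4a3 and Col4a4 share their peak. This criterion was chosen after the values were seen. The H3K4me3 lists of HFD mice 7, 8 and 10 were the shortest (13517 to 19079 peaks, against 20304 to 24104 in the others). Of all genes with H3K4me3 in exactly 5 mice, 68% had this pattern, and of all genes with H3K4me3 without H3K27ac, 5.38% had it. Diet and length of the lists cannot be told apart for these genes.

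By condition, H3K4me3 was present in both mice at 24 collagen genes in warm NCD, 24 in cold NCD, 5 in warm HFD and 13 in cold HFD (54.5%, 54.5%, 11.4% and 29.5%). For all genes these shares were 59.6%, 60.9%, 43.6% and 54.3%. The collagen genes thus showed the wider range, with mouse 7 contributing 5 and mouse 10 contributing 13 genes. H3K27ac was present in both mice at 3, 3, 0 and 2 collagen genes in the same order (6.82%, 6.82%, 0% and 4.55%), against 33.6%, 31.2%, 3.92% and 19.0% of all genes.

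Genes that act on collagens were active in 15 of 44 cases (34.1%), against 39.6% of all genes and 9.09% of collagen genes, and the difference between these shares was not tested. Of 18 genes for processing enzymes and chaperones, 9 were active (50%), 8 had H3K4me3 without H3K27ac, 1 of these had H3K27me3 too, and 1 was unmarked. P4ha1, a subunit of prolyl 4-hydroxylase, Serpinh1, the collagen chaperone HSP47, and Sparc, a collagen-binding matrix protein, had H3K27ac in 8 mice, whereas P3h2, P3h3, P4ha3 and Fkbp10 had none at a start site. Sparc was the 1 gene of this list whose H3K27ac coverage did not overlap between temperatures (12.9% to 71.4% over all mice, higher in cold, background 1.27%). Of 11 genes for propeptide cleavage and cross-linking, 3 were active (27.3%), Lox, Loxl1 and Pcolce, each with H3K27ac in 6 mice, and 8 had H3K4me3 without H3K27ac. Of 8 collagenases and inhibitors, 1 was active (12.5%), Timp3, with H3K27ac in 7 mice. Of 7 receptor genes, 2 were active (28.6%), the integrin chains Itga1 and Itgb1, with H3K27ac in 8 and 7 mice, and Ddr1 and Ddr2 had it in 3 and 2. None of the genes of the last 3 lists had coverage that separated by temperature or diet (1.27% and 0.867% of all genes).

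The tissue label was compared with marker genes. All 10 brown adipocyte markers, among them Ucp1, Cidea and Pparg, were active. Of the markers of other cell types, beside 39.6% of all genes, 7 of 8 endothelial, 3 of 5 Schwann cell, 1 of 6 mural, 1 of 7 macrophage, 0 of 9 fibroblast, 0 of 6 chondrocyte and 0 of 6 skeletal muscle genes were active. The fibroblast markers, of a cell type known to produce type I and type III collagen, had H3K27ac at a start site in at most 2 mice each (Dcn), and Pdgfra had it in none. Myog, the only muscle marker with coverage in any mouse, reached 48.9% in a cold HFD mouse and 44.5% in a cold NCD mouse. No warm mouse had coverage of it, but the cold values also began at 0%, so the groups overlapped.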

How the data were processed

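H3K4me3, H3K27ac, H3K4me1 and H3K27me3 were measured by ChIP-seq in 8 mice, with an input for each mouse. The authors filtered reads with cutadapt, aligned them to GRCm38 with Bowtie2 and called peaks with MACS2 for each library against its input, with versions not given in the sources used here. Each of the 32 deposited lists gives a fold enrichment (a ratio to local background) and −log10 p and −log10 q values from the peak caller. The smallest deposited −log10 q was 1.30. These values were used within a list only, and read depth is not in the lists. The number of peaks per list, which limits what could be found, was 3224 to 40604 for H3K27ac, 13517 to 24104 for H3K4me3, 12 to 27568 for H3K4me1 and 20 to 6428 for H3K27me3. The 8 inputs were used only through these lists.

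Genes and start sites came from GENCODE M21 basic, and coordinates are 1-based. A peak counted at a gene when it overlapped a window of 1000 bp around any start site. H3K27ac coverage was the percent of gene-body bases under peaks. Regions were unions of overlapping peaks over 8 mice. Mice were grouped by the temperature and diet in their labels. Coverage was compared between 4 and 4 mice with a two-sided exact permutation test (70 assignments) and presence by Fisher's exact test, with Benjamini-Hochberg adjustment over all genes with any value. Since only the label gives the mouse, p-values measure the spread between these libraries. RefSeq promoter windows matched 35 of 44 genes (not Col1a1, Col2a1, Col4a3, Col5a2, Col9a3, Col12a1, Col14a1, Col22a1 and Col26a1), and their starts lay at most 299 bp from a GENCODE start site. With more than 1 window, the one with more CpG pairs was used. Genes described per mouse were those with H3K27ac at a start site in at least 6 mice, H3K27me3 in at least 1 mouse, groups that did not overlap, or one of 8 fixed names (Col1a1, Col1a2, Col3a1, Col4a1, Col4a2, Col6a1, Col15a1, Col18a1). Col5a2, Col6a3, Col12a1, Col23a1 and Col28a1 were described after their values were seen. The collagen genes, gene lists and tests were chosen with earlier results of these data known. Scripts were tested on simulated data. Python 3.11.15, numpy 2.4.6 and scipy 1.17.1 were used.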

Additional observations from a re-analysis of the deposited data

Results flagged for a closer look

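The number of collagen genes with H3K27me3 at a start site stood apart in 2 mice. Mouse 5 had 10 such genes, and its gap to the next mouse was 0.7 of the range over all 8 mice. It also stood apart within the NCD mice, where the other 3 had 0. Mouse 11 had 3 and stood apart within the HFD mice, where the other 3 also had 0. These were 3 of 50 combinations of a measure and a group of mice examined, and chance alone flags about 1 in 20 groups. The H3K27me3 lists of these mice were also the longest, with 6428 and 1392 peaks, and the part of list length in these counts was not tested.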

How the results depend on the processing

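When peaks needed a −log10 q of 5, H3K27me3-marked collagen genes fell from 10 to 4, and H3K4me3 was in all NCD and no HFD mice at 2 (Col1a2 and Col6a1, against 0.214% of all genes). The same setting left 1 gene (Col4a2) with coverage that did not overlap by temperature (0.657% of all genes), 58 regions in all, 1 region divided by temperature (0.116% of all regions) and 0 by diet. H3K27me3 required in 2 mice left 3 genes, and H3K4me3 and H3K27ac required in 6 mice left 13 genes with H3K4me3 without H3K27ac. Coverage relative to the library gave 2 genes (Col6a3 and Col18a1) that did not overlap by diet (3.52% of all genes). Leaving out each mouse in turn gave 3 to 10 H3K27me3-marked genes (3 without mouse 5). It gave 0 to 3 genes without overlap by temperature (3 without mouse 10: Col4a1, Col6a3 and Col28a1, against 10.2% of all genes) and 0 to 1 by diet (Col18a1 without mouse 1, against 4.75%). Divided H3K4me3 start sites numbered 0 to 1 by temperature (Col9a2 without mouse 10, against 0.73% of all genes) and 0 to 6 by diet (6 without mouse 11, against 1.91%). Divided H3K4me1 start sites by diet numbered 0 to 2 (2 without mouse 1, against 4.80%). Divided regions numbered 0 to 6 by temperature (6 without mouse 10, against 1.89% of all regions, and 2 without mouse 2, against 0.629%) and 1 to 3 by diet (3 without mouse 1, against 0.742%). The following settings were chosen after the data were seen. Without mice 7 and 10, 3 genes did not overlap by temperature (10.6% of all genes) and 1 had divided H3K4me3 (Col9a2, against 0.786%), and allowing 1 exception gave 6 genes with divided H3K4me3 by diet (1.85% of all genes in that direction). The cause of these shifts was not tested, and fewer mice make separation easier by construction.

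The diet differences (HFD minus NCD) of Col4a2, Col27a1 and Col4a1 reversed under some alternatives, and that of Col18a1 under none of 13, although it shrank from −2.87 to −0.768 percentage points with the 3000 highest peaks of each list. For Col4a2 the difference was 2.14 times the library average relative to the library, 0.164 percentage points without bases near start sites, 6.83 without mice 7 and 10, and −5.27 to 5.21 leaving out each mouse. For Col27a1 it was 0.00693 without bases near start sites, 0.897 without mice 7 and 10, and −1.22 to 0.0114 leaving out each mouse. For Col4a1 it was 1.23 without mice 7 and 10. The temperature difference (cold minus warm) of Col18a1 was −0.0247 with those 3000 peaks. The temperature differences of Col4a1, Col4a2 and Col27a1 reversed under none of 13 alternatives, but with the 3000 highest peaks they fell from 10.1 to 1.27, from 14.3 to 6.52 and from 0.678 to 0 percentage points. Leaving out each mouse gave 6.82 to 13.1, 11.4 to 17.6 and 0.0764 to 1.31.

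No paired analysis was possible because the mouse numbers join the marks of one mouse and the groups compared share no number. List length limits every count: at a gene without a peak, absence and lack of detection cannot be told apart.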
